A study of Populus ussuriensis with 18 samples.

Results

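Transcript levels at the base of poplar stem cuttings were compared between 1 h and 0.5 h after cutting, to find which loci lead the wound response in that interval. The material was Populus ussuriensis, grown in vitro for 2 weeks at 25 °C on medium with 20 g/L sucrose, under 16 h of light and 8 h of dark. The groups were 1 h (2 libraries) and 0.5 h (2 libraries), taken from the basal 0.5 cm of cut stems and belonging to a series of 18 libraries over 9 time points. Both groups had been cut, so neither is an uncut control. The labels name no genotype beyond the species and do not say how many plants stand behind a library. The p-values therefore measure the spread between libraries, which may be technical. All 4 libraries were chosen by their labelled time. Of the 36385 loci listed, 23642 with at least 1 FPKM in 2 or more of the 4 libraries were tested. FPKM divides the reads of a transcript by its length and by the reads of the whole library, and a locus is the sum over all its listed transcripts.

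When plant tissue is cut, damaged cells release calcium, electrical and reactive oxygen signals, and jasmonate is made from plastid lipids. Genes for transcription factors of the AP2/ERF, WRKY and C2H2 zinc finger families are known to be among the first to be transcribed in wounded plants, and many fall again soon after. In stem cuttings these events precede the formation of adventitious roots, which arise from stem tissue. The files do not pair the locus identifiers with names, so the loci below carry no name or role and only 4 of them are given by identifier. Markers of stem tissue or of other organs were not analysed here for the same reason.

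The 4 libraries were of even depth, with 28550471 to 30361242 reads each, as recovered from the steps of their FPKM values. Over the tested loci, Pearson's r of log2(FPKM + 1) was 0.989 between the libraries at 1 h, 0.986 between those at 0.5 h and 0.894 to 0.916 across the groups. Loci are not independent replicates, so these values describe the libraries only. The top 100 loci by reads made up 15.3% and 15.8% of each 1 h library, against 12.6% and 13.2% of each 0.5 h library. Fewer cells of a type and less RNA per cell cannot be told apart in such bulk samples. Time of day passes together with time after cutting, and the 2 cannot be told apart here.

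About as many loci differed between 1 h and 0.5 h as did not, and more of them were lower than higher at 1 h. By limma with a Benjamini-Hochberg adjusted p below 0.05, 12312 loci changed (52.1% of those tested), 3862 upwards (16.3%) and 8450 downwards (35.7%). The typical change was small, with a median log2 fold change of 0.74 among the loci that rose and -0.65 among those that fell. Both libraries at 1 h lay above both at 0.5 h in 24.8% of all loci and below both in 51.3%. The median over all tested loci was -0.195. Quantile normalization, which gives every library the same distribution of levels, moved that median to -0.05. It left 48.8% of loci called, 22.8% higher and 26.0% lower, so that risers made up 46.7% of the changed loci under it and 31.4% without it. Of the 3862 rising loci 3830 were still called higher under it, and of the 8450 falling ones 6095 were still called lower.

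Among the largest changes, rises outnumbered falls. Rises of 2-fold or more numbered 1302 (5.51%), and falls of that size 1798 (7.61%). At 4-fold or more the order was turned, with 277 rises (1.17%) and 148 falls (0.626%). The 10 loci past 16-fold (0.0423%) on the log2(FPKM + 1) scale all rose, and the share that fell by as much was 0.0%. The 277 rising and 148 falling loci at 4-fold are described below as the leading loci. They were chosen by this comparison, so their folds describe them and test nothing further. Their number depends on the pseudocount, the value added before taking logs, which shrinks the folds of low loci. With 0.1 in place of 1 there were 508 and 397, and the rising loci stayed in the majority. A voom fit of the recovered reads gave 522 and 449. The lack of falls past 16-fold also depends on the pseudocount: with 0.1 Potri.015G101500 had a log2 fold change of -6.08. Under quantile normalization 276 of the 277 and 116 of the 148 still passed 4-fold, where 1.57% of all loci rose and 0.524% fell that far.

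**Figure D1:**
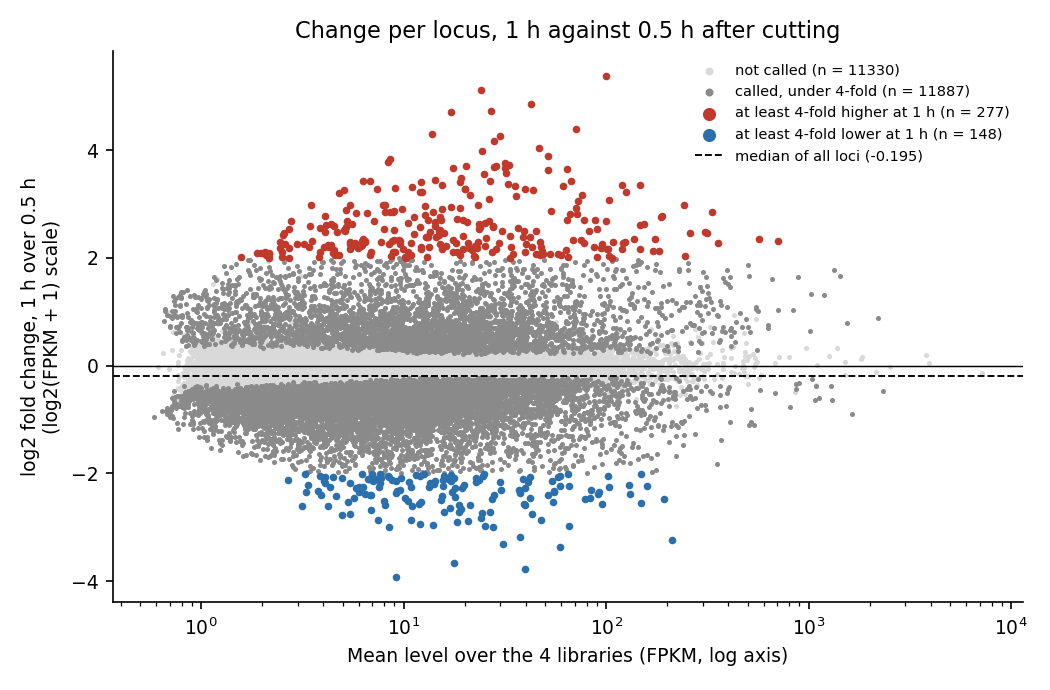
Each point is 1 of the 23642 tested loci, placed by its mean level over the 4 libraries (FPKM, log axis) and its log2 fold change of 1 h over 0.5 h on the log2(FPKM + 1) scale. Points past 4-fold are coloured, 277 upwards and 148 downwards, and the dashed line marks the median of all loci at -0.195.

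The loci called in each direction can also be described by their share of the summed FPKM. They were chosen by these same values, so the direction of each shift was given and only its size is described. The 3862 rising loci held 31.0% and 33.1% of the summed FPKM of the 1 h libraries, against 16.1% and 15.6% in the 0.5 h libraries. The 8450 falling loci held 22.8% and 20.8% at 1 h, against 37.9% and 36.9% at 0.5 h. The 277 leading risers alone took 3.33% and 3.94% at 1 h, against 0.572% and 0.594% at 0.5 h. FPKM shares add to a fixed whole, so a gain in some loci lowers others on this scale.

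The locus with the largest rise, Potri.008G086700, has 5 listed transcripts of about 980 bp. It held 158 and 232 FPKM in the 1 h libraries, against 3.50 and 3.77 FPKM in the 0.5 h libraries, from 4739 and 6520 reads against 104 and 110. It averaged 195 ± 52.2 FPKM at 1 h and 3.64 ± 0.186 FPKM at 0.5 h (SD, n = 2 each), and the groups lay far apart. Its log2 fold change was 5.38 with an SE of 0.17 (Benjamini-Hochberg adjusted p in limma 4.78e-10). The locus went on to 1237 and 1190 FPKM at 2 h, a further log2 change of 2.66 over 1 h (limma adjusted p 1.22e-07). It was still at 990.4 and 972 FPKM at 6 h, and had come down to 13.1 and 12.9 FPKM by 96 h.

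Potri.011G089700, with 6 listed transcripts, came next and was barely detected at 0.5 h. It held 36.6 and 59.0 FPKM at 1 h, against 0.513 and 0.248 FPKM at 0.5 h, where only 21 and 11 reads were seen, and averaged 47.8 ± 15.8 FPKM against 0.380 ± 0.188 FPKM (SD, n = 2 each). Its log2 fold change was 5.11 with an SE of 0.25 (Benjamini-Hochberg adjusted p in limma 9.29e-09). At 2 h it stood at 279 and 250.4 FPKM, and at 12 h at 35.3 and 24.3 FPKM. Over the alternatives its log2 fold change lay between 4.77, without library 2 at 1 h, and 7.01, in a voom fit of the recovered reads, with the highest adjusted p from limma at 2.7e-05.

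The 12 largest rises, of at least 3.9 on the log2 scale, mostly continued to 2 h, and most had turned by 6 h. The mean level of 11 of them was higher again at 2 h than at 1 h, and 10 of the 12 were called higher and 1 lower in that step. Of all loci tested 42.3% were called there, 23.5% higher and 18.8% lower. The step shares the 1 h libraries with the comparison of 1 h and 0.5 h, so these values stand side by side only. By mean level all 12 were lower at 6 h than at 2 h, 10 of them past the test, in a step where 21.0% of all loci were called lower and 36.0% higher. The loci of rank 1 and 2 did not pass it, with log2 changes of -0.31 and -0.47 (limma adjusted p 0.147 and 0.13).

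The locus of rank 7 gave a short pulse. It held 25.9 and 28.6 FPKM at 1 h, against 0.491 and 0.364 FPKM at 0.5 h. It was at 29.6 and 27.6 FPKM at 2 h and back at 0.833 and 0.488 FPKM at 6 h. The locus of rank 12 had already turned: it held 91.8 and 103 FPKM at 1 h, against 6.83 and 4.53 FPKM at 0.5 h, and 50.2 and 40.7 FPKM at 2 h. The locus of rank 4 had the largest further rise of the 12 on the log2 scale, with a change of 4.19 at 2 h over 1 h. It held 40.2 and 66.0 FPKM at 1 h, against 0.946 and 1.00 FPKM at 0.5 h, and then 979.5 and 939.6 FPKM at 2 h.

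**Figure D2:**
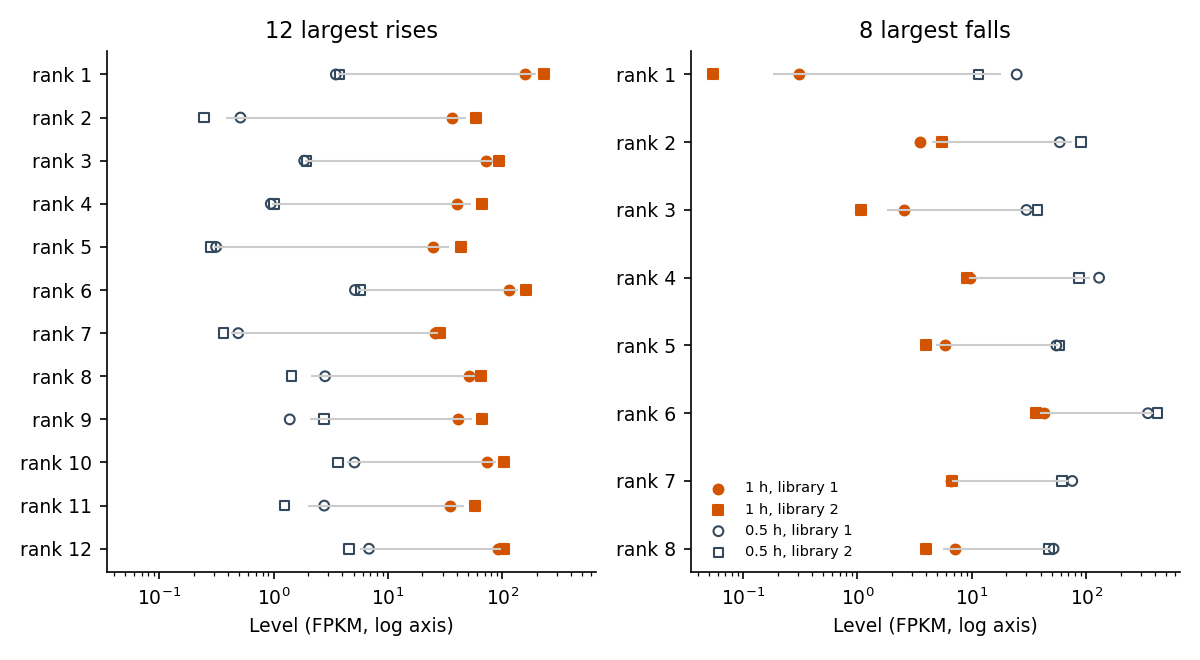
Levels (FPKM, log axis) in the 1 h libraries (filled) and the 0.5 h libraries (open) for the 12 loci with the largest rise and the 8 with the largest fall, ranked by log2 fold change, with grey lines joining the group means. In all 20 the libraries of the groups stand apart, as the rule for choosing them required. In the 12 rising loci library 2 at 1 h lies above library 1.

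The steepest falls came just short of 16-fold on the log2(FPKM + 1) scale, which holds back the fold of loci that end near 0. Potri.015G101500, with 1 listed transcript of 1286 bp, held 0.307 and 0.0545 FPKM at 1 h, against 24.7 and 11.5 FPKM at 0.5 h. Only 12 and 2 reads were left at 1 h, against 962 and 430 at 0.5 h. The libraries within each group differed widely, at 0.181 ± 0.179 FPKM in the 1 h group and 18.1 ± 9.34 FPKM in the 0.5 h group (SD, n = 2 each). The groups did not overlap, as the rule for choosing the locus required. Its log2 fold change was -3.93 with an SE of 0.28 (Benjamini-Hochberg adjusted p in limma 1.65e-07), and it lay between -6.82 and -3.41 over the alternatives. The locus was back at 25.1 and 40.6 FPKM at 6 h and at 75.6 and 64.6 FPKM at 96 h.

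Potri.001G066400 held 3.55 and 5.47 FPKM at 1 h, against 58.7 and 90.4 FPKM at 0.5 h, and averaged 4.51 ± 1.36 FPKM against 74.6 ± 22.4 FPKM (SD, n = 2 each). Its log2 fold change was -3.77 (SE 0.31, adjusted p from limma 4.84e-07). It held 16.7 and 31.0 FPKM at 6 h, below both 0.5 h libraries, and 62.3 and 109.5 FPKM at 12 h. Among the 8 largest falls, 5 loci were called higher at 6 h than at 2 h and 1 was called lower, in a step where 36.0% of all loci were called higher and 21.0% lower. The one called lower was that of rank 4, which held 9.66 and 9.15 FPKM at 1 h, against 129.7 and 86.9 FPKM at 0.5 h, and 0.590 and 0.537 FPKM at 96 h. The locus of rank 6 started from the highest level of the 8, with 42.5 and 36.6 FPKM at 1 h, against 347 and 420.6 FPKM at 0.5 h.

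Loci that gained most in absolute level were already abundant. The largest gain was in a locus with 2018 and 2326 FPKM at 1 h, against 637 and 730.2 FPKM at 0.5 h, with a log2 fold change of 1.67 and an SE of 0.16 (adjusted p from limma 1.73e-06). It stayed at 2504 and 2398 FPKM at 2 h and held 84.4 and 98.9 FPKM at 6 h. The next largest gain reached 1958 and 2167 FPKM at 1 h, against 601.3 and 596 FPKM at 0.5 h. The locus of the fourth largest gain peaked at 1 h, with 1630 and 1750 FPKM there, against 658 and 696 FPKM at 0.5 h, and 468.5 and 417 FPKM at 2 h.

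The largest loss in absolute level, a mean difference of -965 FPKM, was in a locus with 1299 and 989 FPKM at 1 h, against 1979 and 2240 FPKM at 0.5 h. On the log2 scale this locus fell by 0.89 with an SE of 0.17 (adjusted p from limma 0.000605). The second and the third largest losses were in loci with neighbouring identifiers, at 1960 and 1938 FPKM against 2463 and 2935 FPKM, and at 1071 and 961 FPKM against 1425 and 1766 FPKM, in each case 1 h against 0.5 h. The most abundant locus of all that was not called held 7147 and 6530 FPKM at 1 h, against 6962 and 8017 FPKM at 0.5 h, groups that overlap (limma adjusted p by Benjamini-Hochberg 0.557).

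Most leading risers were low but measurable at 0.5 h. Their median level was 26.0 and 34.3 FPKM in the 1 h libraries, against 3.35 and 3.54 FPKM in the 0.5 h libraries. Of the 277, 50 (18.1%) were below 1 FPKM in both libraries at 0.5 h and 68 (24.5%) were at 10 FPKM or more in both, against 43.5% of all tested loci for the share at 10 FPKM or more. A locus below 1 FPKM in both libraries at 0.5 h was tested only where both libraries at 1 h reached 1 FPKM, so the share below 1 FPKM has no fair counterpart among all tested loci. Only 7 loci had at least 10 FPKM in both 1 h libraries and were below 1 FPKM in both 0.5 h libraries. The leading fallers came from above the middle of the range: 122 of the 148 had 10 FPKM or more in both libraries at 0.5 h, and 15 were below 1 FPKM in both at 1 h. The pseudocount of 1 holds back the falls of low loci, so a high starting level is partly built into this set.

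The 277 leading risers did not keep their level. Their median reached 36.4 and 34.8 FPKM in the 2 h libraries. By 6 h it had come down to 12.7 and 11.1 FPKM. The 12 h libraries gave 6.12 and 6.42 FPKM, those of 24 h gave 6.20 and 5.74 FPKM, those of 48 h gave 5.36 and 4.19 FPKM and those of 96 h gave 3.02 and 2.76 FPKM. By mean level 112 of the risers were highest at 1 h, another 109 peaked at 2 h, 38 did so at 6 h and 18 later. Over all 23642 tested loci 2591 were highest at 1 h, 2839 at 2 h and 3348 at 6 h. No riser could be highest at 0.5 h, since all were chosen for a rise from it. These times are descriptions of means of 2 libraries. At 12 h, 131 of the 277 were within 2-fold of their 0.5 h level, and at 96 h 146 were. The same count over all loci is not given here.

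The step from 2 h to 6 h shares no library with the comparison and was tested in the same fit. Of the 277 leading risers 202 (72.9%) were called lower at 6 h than at 2 h and 30 (10.8%) higher. Over all 3862 rising loci those shares were 56.6% and 12.0%, and over all loci tested 21.0% and 36.0%. The median log2 fold change of 6 h over 2 h was -1.55 in the leading risers, -0.48 in all rising loci and 0.15 over all loci.

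The leading risers can be grouped by the time of their maximum. The 112 highest at 1 h had medians of 5.53, 36.9, 17.1 and 6.42 FPKM at 0.5, 1, 2 and 6 h. The 109 highest at 2 h had 3.45, 34.1, 70.3 and 11.6 FPKM at these times. The 38 highest at 6 h started lowest of the 3 groups, with 2.00, 16.2, 35.5 and 69.3 FPKM, and were down to 27.7 FPKM by 12 h. The most abundant of those 38 ranked 18th among the risers. It held 23.9 and 53.6 FPKM at 1 h, against 2.18 and 1.52 FPKM at 0.5 h, and reached 1248 and 918 FPKM at 6 h. The 8 highest at 48 h had a median of 6.80 FPKM at 1 h, 3.59 FPKM by 12 h and 39.3 FPKM by 48 h.

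The leading fallers regained part of their level from 6 h on. Their median was 4.79 and 3.85 FPKM in the 1 h libraries, against 27.6 and 28.2 FPKM in the 0.5 h libraries. It was 3.45 and 3.83 FPKM after 2 h, 8.10 and 10.7 FPKM after 6 h and 15.5 and 16.2 FPKM after 12 h. From 24 h to 96 h it lay between 14.8 and 20.5 FPKM in every library. Of the 148, 81 (54.7%) were called higher at 6 h than at 2 h and 18 (12.2%) lower, against 36.0% and 21.0% of all loci tested. Of all 8450 falling loci 54.8% were called higher in that step and 8.95% lower. On the log2 scale, the 148 leading fallers had a median change of 0.75 in that step, against 0.15 over all loci. For all 8450 falling loci that median was 0.43. By mean level 78 of the 148 were highest at 0.5 h and the other 70 at 6 h or later. The 78 stayed low, with a median of 6.51 FPKM at 12 h and 5.72 at 96 h against 31.8 at 0.5 h. The 29 highest at 24 h had a median of 26.7 FPKM at 0.5 h, 4.18 at 1 h and 57.2 by 24 h.

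**Figure D3:**
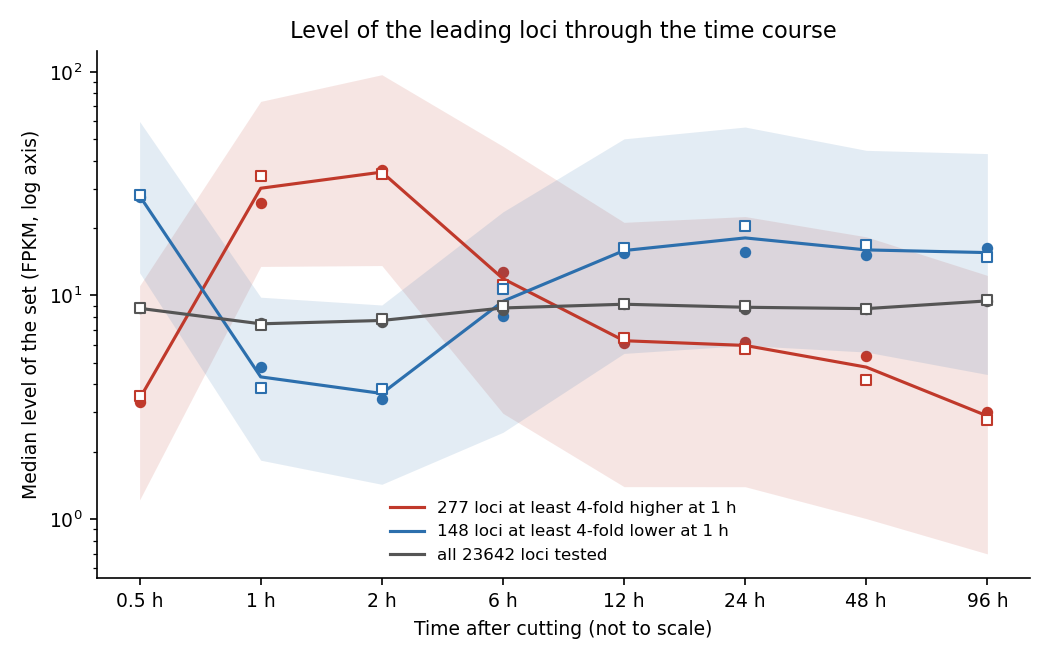
Median level (FPKM, log axis) of the 277 leading risers, the 148 leading fallers and all 23642 tested loci at each time after cutting (axis not to scale). Circles and squares are libraries 1 and 2, lines join their means and shading spans the quartiles of the loci. The risers fall to 3.02 and 2.76 FPKM by 96 h, whereas the fallers regain 15.5 and 16.2 FPKM by 12 h.

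The libraries at 1 h differed from each other in the direction of the response. Of the 277 leading risers 244 (88.1%) were higher in library 2 than in library 1 at 1 h, and of the 148 leading fallers 107 (72.3%) were lower in library 2. Of all 3862 rising loci 68.9% were higher in library 2, and of all 8450 falling loci 70.9% were lower in it. Over all tested loci library 2 was higher in 43.2% and lower in 56.8%. Set against the mean of 0.5 h, the median log2 change of the leading risers was 2.58 in library 2 and 2.30 in library 1, and that of the leading fallers was -2.44 and -2.25. At 0.5 h library 2 was higher in 59.2% of the leading risers and in 58.8% of the leading fallers. Without library 2 at 1 h the changed loci numbered 8700 and the leading loci 225 and 135, and without library 1 they numbered 10710 and 334 and 192. With each of the 4 libraries left out in turn, 276 of the 277 risers and 148 of the 148 fallers were still called. The leading loci were chosen with all 4 libraries, so their calls without 1 of these were largely given by the choice. What set the 1 h libraries apart was not tested.

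**Figure D4:**
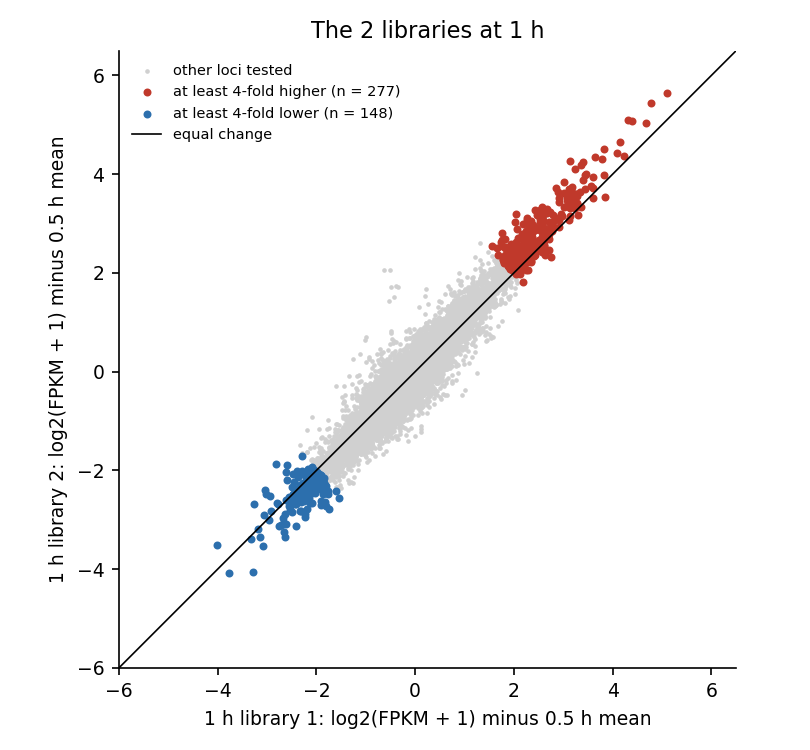
Change of each tested locus over the mean of the 0.5 h libraries, on the log2(FPKM + 1) scale, in library 2 at 1 h (vertical) against library 1 at 1 h (horizontal), with a line of equal change. Of the leading risers 244 of 277 lie above the line and of the leading fallers 107 of 148 below it.

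The leading loci had shorter transcripts than the tested loci as a whole. The transcript length of a locus was recovered from the steps of the FPKM values and averaged over its transcripts by level. Its median was 1304 bp in the 277 leading risers and 1383 bp in the 148 leading fallers, against 1629 bp over all tested loci. A single transcript was listed for 205 (74.0%) of the risers and 83 (56.1%) of the fallers, against 50.2% of all. Among loci with a single listed transcript the medians were 1204 bp, 1218 bp and 1389 bp in the same order. The share of loci that rose at least 4-fold was 1.99% in the quintile of the shortest loci, up to 1008 bp, and 0.508% in that of the longest, from 2452 bp. The shares of all rising loci in those quintiles were 16.1% and 16.0%. For falls of at least 4-fold the shares were 0.719% and 0.317%, whereas falls of any size were called in 22.6% of the shortest loci and 38.2% of the longest. Short loci carry fewer reads at a given FPKM, and the part of that in these shares was not tested.

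Transcripts of the same locus were seldom called in opposite directions. Of 71 leading risers with 2 or more tested transcripts, all 71 had every one of them called higher at 1 h. Of 65 such fallers all 65 had every one called lower, by limma on the transcripts as deposited. These loci were chosen by the sum of the same transcripts, so their agreement was largely given by the choice. Over all loci, 13.6% of transcripts were called higher and 32.0% lower. Only 9 of 10379 loci with 2 or more tested transcripts (0.0867%) held a rising and a falling one. Among 5176 loci with several transcripts and at least 10 FPKM in each of the 4 libraries, the leading transcript was another at 1 h than at 0.5 h in 113 (2.18%), counting only loci whose libraries within a group had the same one. It differed between the libraries at 1 h in 724 loci and between those at 0.5 h in 685. Reads of near-identical transcripts can be split among them by the counting, so these transcript levels are uncertain.

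A neighbour that moved the same way was more common beside leading loci than over all tested loci, though most leading loci had none. Identifiers carry a prefix from 1 to 17 and a running number, and a neighbour here is the next or previous identifier listed. Of the 277 leading risers 70 (25.3%) had a neighbour that rose at least 2-fold, against 14.6% of all 3862 rising loci and 7.25% of all tested loci. Of the 148 leading fallers 30 (20.3%) had a neighbour that fell at least 2-fold, against 13.1% of all 8450 falling loci and 10.1% of all tested loci. Neighbours that moved the opposite way were found beside 10 risers (3.61%) and 7 fallers (4.73%).

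Runs of adjacent loci that all rose at least 2-fold numbered 132 and held 298 of the 1302 loci. Of these runs 21 held 3 or more loci. The longest run had 6 loci of prefix 2, with log2 fold changes from 1.47 to 2.18 and a summed level of 166 and 163 FPKM at 1 h, against 36.5 and 48.6 FPKM at 0.5 h. A run of 4 loci of prefix 11, with log2 fold changes from 1.70 to 4.05, holds the risers of rank 10 and 11 and summed to 128 and 195 FPKM at 1 h, against 10.2 and 6.89 FPKM at 0.5 h. The risers of rank 4 and 6 form an adjacent pair of prefix 6. Their summed level was 153.5 and 226 FPKM at 1 h, against 6.09 and 6.77 FPKM at 0.5 h. Falling runs numbered 150, of which 14 held 3 or more loci. One of these had 4 loci of prefix 17, with 145 and 148 FPKM at 1 h, against 643 and 433 FPKM at 0.5 h. Neighbouring copies of a gene can share reads, and whether these neighbours are such copies was not tested.

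**Figure D5:**
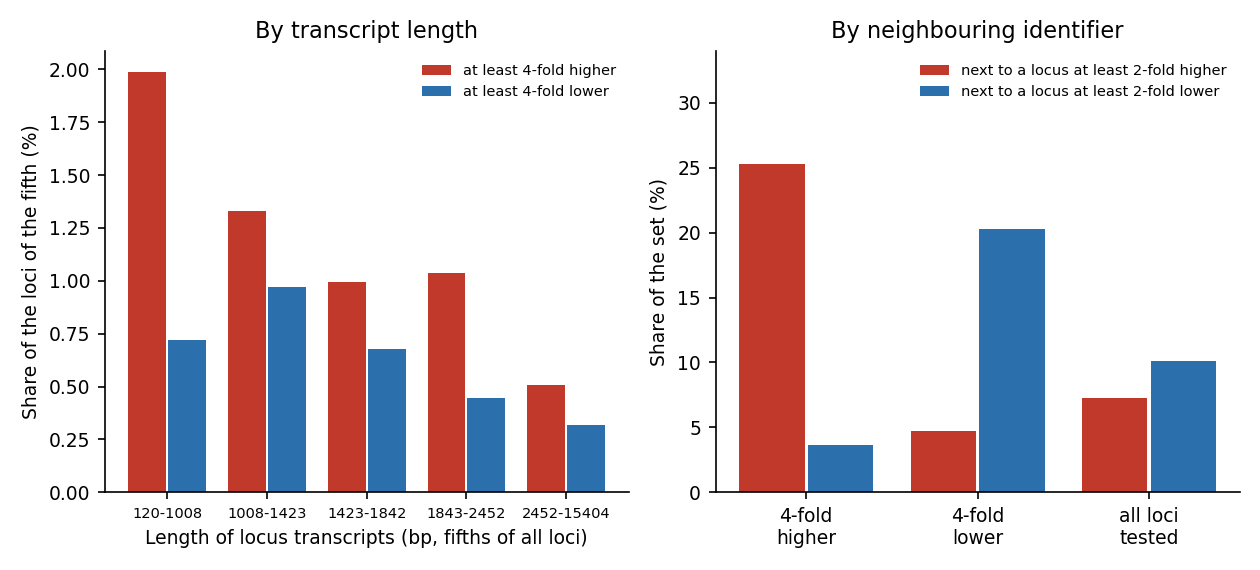
Left, the share of loci (%) that rose (red) or fell (blue) at least 4-fold, in quintiles of all loci by transcript length in bp. Right, the share of each set (%) with a neighbouring identifier that rose (red) or fell (blue) at least 2-fold, at 25.3% of leading risers and 20.3% of leading fallers against 7.25% and 10.1% of all loci.

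The leading risers were spread over all 17 prefixes. Their share of the tested loci ran from 0.638% for prefix 17, of which only part is listed, to 1.81% for prefix 4, with 26 of 1434 loci. The share of leading fallers ran from 0.107% for prefix 16, with 1 of 931 loci, to 0.976% for prefix 4, with 14 loci.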

How the data were processed

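Each library's table, as deposited by the authors, lists transcripts with FPKM, a unit that only the 0 h files name in their headers. The submitters' processing notes name Bowtie2 2.2.3 and HISAT2 2.1.0 but give neither a role. Genome build, annotation, strand and counting tool: not given in the sources used here. Each table ends at 65535 transcripts, within prefix 17.

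FPKM of all transcripts of a locus were summed and analysed as log2(FPKM + 1), so folds of low loci are understated. Loci with at least 1 FPKM in at least 2 of the 4 libraries were tested with limma 3.58.1 in R 4.3.3, two-sided, with intensity trend and robust variance, in 1 model of the 16 libraries from 0.5 h to 96 h with a mean per time point. The 2 libraries of 0 h were left out because 38.5% and 38.1% of their transcripts are listed at 0, against 8.89% to 10.7% later. A locus was called at an adjusted p (Benjamini-Hochberg) under 0.05 within a comparison.

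Read totals and transcript lengths were recovered from the steps of FPKM values between 0.015 and 0.07, searching lengths that give whole reads within 0.01 in the 16 libraries. All 60197 transcripts searched gave one. Totals assume single reads, and counts cover counting error only. On simulated data the test missed more of the small changes than of the large ones, and the share of false calls was above the nominal one. The simulated data had an assumed spread and far fewer changed loci than were called here. Their share of false calls therefore does not carry over to these calls.

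The comparison, lists and named loci were chosen with earlier results of these data known, and the test of 6 h against 2 h was added after seeing them. The rule for single loci took, among called loci whose groups do not overlap, the 12 largest rises and 8 largest falls by log2 fold change and the 4 largest gains and 4 largest losses in mean FPKM, and the 3 most abundant loci not called. Some of these, and a riser with its maximum at 6 h and runs of neighbours chosen after their values were seen, are described. No table pairs identifiers with names, so 34 planned gene lists, among them tissue markers, could not be matched and were not analysed here. Alternatives changed the pseudocount, filter, scaling, libraries fitted, unit, variance model, threshold, replicate block and single libraries.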

Additional observations from a re-analysis of the deposited data

How the results depend on the processing

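The 57 recomputed log2 fold changes of the 4 loci given by identifier kept their direction and an adjusted p (limma) below 0.05. The 12312 loci changed at 1 h against 0.5 h became 20779 transcripts as deposited, 5685 among loci with 1 listed transcript, 3100 at 2-fold and 425 at 4-fold. The 9995 changed at 2 h against 1 h became 16079, 4581, 2151 and 265 in the same order. The 277 loci at least 4-fold higher became 508 when 0.1 was added before the log, and 522 in a voom fit of the recovered reads. The 148 at least 4-fold lower became 397 and 449 in these, 223 with a pseudocount of 0.5 and 83 among loci with 1 listed transcript, where the 81 fallers higher at 6 h became 41 of 83. Those for fewer loci, more units or a minimum fold follow from what was counted, and a smaller pseudocount widens the folds of low loci by construction. For the voom fit the cause was not tested. Leaving out 1 of the 4 libraries, with the lone one assumed to vary like the other groups, gave 8700 to 10710 changed loci, 225 to 334 leading risers, 135 to 192 leading fallers, 7177 to 10119 changed at 2 h against 1 h, 199 to 200 risers lower at 6 h and 81 to 82 fallers higher. Fitting all 18 libraries gave 11760 changed loci and the 4 alone 11020. The 4 alone give no test of 6 h against 2 h or of 2 h against 1 h. Alternatives for gene lists could not be run, since no list could be matched. The replicate block gave 12159 changed loci and moved no count by over 1.5 times. Whether the numbers in the titles pair the libraries cannot be settled by how far same-numbered libraries deviate together. Their deviations correlated at 0.0334 between 1 h and 0.5 h, and over 0.1 in 4 of 28 pairs of time points. Over the 28 pairs the correlations ran from -0.218 to 0.232.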
